A study of Mus musculus with 8 samples.

Results

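The genes described here are the ligands, secreted antagonists, receptors, Smads, transcription factors and targets of the BMP, TGF-beta, activin and hedgehog pathways, 40 listed genes found on the array by their gene name. All 40 were among the 36161 gene names of the array, and 39 of them were measured well enough to enter a test that covered 25354 genes. Small intestine was taken from mouse embryos at E18.5, from 4 controls and 4 embryos labelled as mutants for Rfx6, a transcription factor of endocrine cells. The mutants were Rfx6 fl/fl Ngn3-cre, with 2 floxed Rfx6 alleles and a Cre recombinase that acts in endocrine progenitors. Control replicates 1, 3 and 4 were Rfx6 fl/+ with 1 floxed allele, and control replicate 2 was Rfx6 fl/fl with 2. Cre is named for the mutants alone, so an effect of Cre and an effect of losing Rfx6 cannot be told apart, and all 8 embryos carried at least 1 floxed allele. For mutant replicates 2, 3 and 4 the description field names other Rfx family genes, but the title and source name give Rfx6, and these were followed. Sample titles number the samples separately without stating litters, so the p-values measure the spread between these samples.

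BMPs, TGF-betas and activins are secreted dimers that bind type I and type II serine/threonine kinase receptors. The receptors phosphorylate Smad proteins, which enter the nucleus with Smad4 and, for BMPs, switch on the Id genes and the inhibitory Smads. In the fetal gut, BMPs are made largely by the mesenchyme under the epithelium, and antagonists such as noggin and gremlin limit their reach. Hedgehog ligands go the other way: the epithelium secretes Ihh and Shh, and mesenchymal cells respond through Ptch1 and Smo, the Gli factors and the targets Gli1, Ptch1 and Hhip. Hedgehog signals sustain smooth muscle and villus mesenchyme, and hedgehog-responsive mesenchyme is in turn a source of BMPs. Rfx6 acts in endocrine cells, which are scattered singly in the epithelium, and RNA of the whole intestine was used.

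None of the 39 tested members differed between mutants and controls at a limma adjusted p of 0.05, against 15 of 25354 genes (0.0592%) over the whole array. The smallest adjusted p of a member in limma was 0.655, for Bmp3, a BMP-family ligand that opposes other BMPs. Differences, given as mutant minus control on the log2 scale, ran from -0.62 for the activin receptor Acvr2a to 0.62 for the BMP receptor Bmpr1b, and each of these extremes rested on 1 array, mutant replicate 1 for Acvr2a and mutant replicate 2 for Bmpr1b. At an unadjusted limma p under 0.05 there were 3 members, Bmp3 and Bmp8b higher and Inhbb lower, which is 7.69% of members against 5.33% of all genes (3.18% higher and 2.15% lower). The groups did not overlap for 2 members, Bmp3 and Bmp8b, or 5.13% of members against 4.67% of all genes (3.04% with mutants above and 1.62% with mutants below). These shares lie close to those of the whole array.

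The members were split in direction, with 18 higher and 21 lower in mutants and a median difference of -0.0048, beside a median of 0.031 over all genes tested, of which 14482 were higher and 10868 lower. The median difference was -0.037 for the 22 BMP genes, -0.024 for the 9 TGF-beta and activin genes and 0.030 for the 8 tested hedgehog genes. The 95% limma interval of the difference lay within 1 log2 unit, that is within 2-fold in either direction, for 35 of 39 members (89.7%, against 89.4% of all genes), and within 0.5 for 22. The 4 wider intervals belonged to Bmpr1b, Inhba, Acvr2a and Hhip. The intervals are not adjusted for the number of genes tested, and Bmp3, whose interval left out 0, was not called. With 4 arrays a group, a difference smaller than these intervals was not detectable, and a larger one could also miss a call. The tests do not show that the genes were equal.

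The level of a gene is the log2 intensity of its brightest probe minus the log2 of the array's 75th percentile, so levels are compared between arrays and not between genes. The 75th percentile ranged from 788 to 1027 intensity units, and the share of probes well above background from 59.7% to 69.9%. The Rfx6 probe does not check the genotypes, since Rfx6 stood at a mean of -3.23 (SD 0.23, n = 4) among controls and -3.73 (SD 1.20, n = 4) among mutants. Endocrine hormone markers separated the groups: 8 of 11 fell in mutants at a limma adjusted p under 0.05 (Cck, Gcg, Ghrl, Gip, Nts, Pyy, Sct and Sst), and the summed linear level of the 11 was 176 to 185 in controls and 80.2 to 98.7 in mutants. Every one of the 12 epithelial, 8 mesenchymal, 7 smooth muscle, 9 enteric neuron and glia and 6 endothelial markers was well above background on all 8 arrays. Below background on most arrays, and so untested, were Epb4.2 of the red cell list, Pnlip and Prss2 of the pancreas list and Atp4a, Gkn2 and Sox2 of the stomach list. Pancreas acinar markers stood higher in mutants for 6 of 6 tested genes. The summed level of the list was 0.937 to 2.20 in controls and 2.84 to 14.5 in mutants. The lowest limma adjusted p, 0.114, belonged to Cela2a. That gene was well above background in 0 of 4 controls and 4 of 4 mutants. It thus entered the test only through the group where it was high, and its count and p are no independent support. Stomach markers summed to 12.7 in mutant replicate 3 and to 0.440 to 0.657 on the other 7 arrays.

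Some arrays stood apart from the rest. Mutant replicate 1 correlated with the other arrays at 0.975 to 0.980 across genes, against 0.990 to 0.995 among the other 7. Of 39 members it read below the range of those 7 for 10 and above it for 16. The share of all genes outside that range was not computed, so these counts are not read as particular to the members. In control replicate 3 the summed smooth muscle markers stood at 241, against 337 to 365 in the other controls and 336 to 460 in mutants, and each of the 7 genes of that list was lowest there among all 8 arrays. That array also held the lowest control value for 9 of 9 neuron and glia markers and 7 of 8 mesenchyme markers. Mutant replicate 1 had the highest smooth muscle sum, 460. In bulk tissue, fewer cells of a type and less RNA per cell cannot be told apart. A member's difference that moved by over 1.5 times without mutant replicate 1 or control replicate 3 is given with and without that array.

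**Figure D1:**
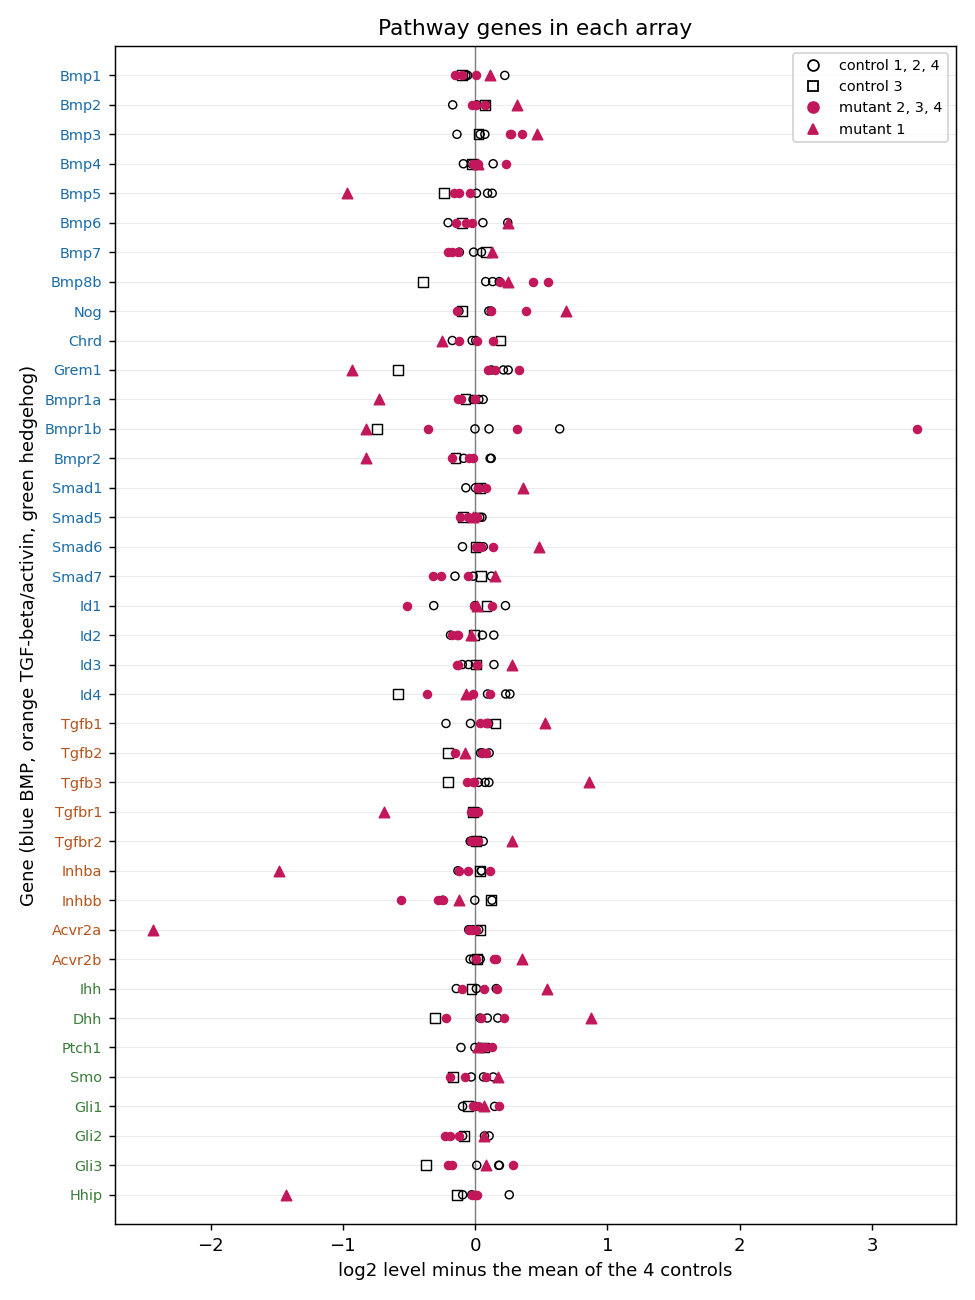
Level of each of the 39 tested members on each array minus the mean of the 4 controls, in log2 units on the horizontal axis, with 1 gene per row. Open symbols are controls (the square is control replicate 3), filled symbols are mutants (the triangle is mutant replicate 1). Most points lie within 0.5 of 0, and the far points are mutant replicate 1 at Acvr2a, Inhba and Hhip and mutant replicate 2 at Bmpr1b.

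The start of the BMP pathway is its ligands, and the member with the smallest p, Bmp3, is one of them. Its 60-base probe lies at chr5:99308890-99308949 on mm9, plus strand, and the first 30 bases from the array files are shown because Bmp3 was the gene whose groups were furthest apart relative to their spread, with the corresponding stretch for Inhbb, the lowest-p gene in the other direction, at chr1:121312160-121312219 on the minus strand.
Bmp3: agaatgtagtgctcaaagtctaccctaaca
Inhbb: tgactggtggagtgaaggtgtgtgctgtaa

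Bmp3 read -0.98, -0.77, -0.81 and -0.80 in control replicates 1 to 4 and -0.37, -0.48, -0.57 and -0.58 in mutant replicates 1 to 4. All 4 mutants lay above all 4 controls, with a gap between mutant replicate 4 and control replicate 2. The difference was 0.34 (SE 0.0919, 95% interval 0.13 to 0.55, limma adjusted p = 0.655). It was 0.30 without mutant replicate 1 and 0.35 without control replicate 3, and its unadjusted limma p stayed under 0.05 in each of 19 alternative analyses while its adjusted p stayed between 0.174 and 0.942. The acinar marker sum separated the groups in the same direction, and its part in this difference was not tested.

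Bmp8b, another BMP-family ligand, read -4.44, -4.39, -4.92 and -4.34 in control replicates 1 to 4 and -4.27, -4.09, -3.97 and -4.34 in mutant replicates 1 to 4. The mutants were above the controls, though mutant replicate 4 and control replicate 4 were nearly equal, and control replicate 3 was the lowest array. The difference was 0.36 (SE 0.15, limma adjusted p = 0.821). Without control replicate 3 it was 0.22 (limma adjusted p = 0.849).

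Bmp4, the main BMP of gut mesenchyme, read 3.38, 3.54, 3.38 and 3.32 in control replicates 1 to 4 and 3.43, 3.38, 3.42 and 3.64 in mutant replicates 1 to 4. Mutant replicate 4 was the highest array, and the other mutants lay among the controls. The difference was 0.064 (SE 0.0961, 95% interval -0.15 to 0.28, limma adjusted p = 0.866).

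The other ligands also overlapped between groups. Bmp2, which is made by gut epithelium as well as mesenchyme, stood at 1.06 ± 0.12 in controls and 1.15 ± 0.15 in mutants (SD, n = 4 each), a difference of 0.094 (SE 0.109) that was 0.019 without mutant replicate 1. Bmp7 stood at 4.06 ± 0.088 in controls and 3.96 ± 0.15 in mutants, a difference of -0.094 (SE 0.103), and mutant replicates 2 to 4 were all below the 4 controls while mutant replicate 1 was above them. Without mutant replicate 1 the Bmp7 difference was -0.17 (SE 0.0731, limma adjusted p = 0.754). Bmp6 stood at -2.33 ± 0.20 in controls and -2.32 ± 0.17 in mutants, a difference of 0.004 (SE 0.131) that was -0.078 without mutant replicate 1 and -0.03 without control replicate 3. Bmp5, a ligand of mesenchyme, read -1.75, -1.67, -2.0 and -1.63 in control replicates 1 to 4 and -2.73, -1.80, -1.92 and -1.88 in mutant replicates 1 to 4. Far below the rest lay mutant replicate 1, and the difference of -0.32 became -0.10 without it. Of the 7 BMP ligands, 5 were higher and 2 lower, with a median difference of 0.064.

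Bmp1 is named with the BMPs but is a protease that cleaves procollagen and the BMP antagonist chordin. Its brightest probe stood at 2.93 ± 0.15 in controls and 2.90 ± 0.12 in mutants (SD, n = 4 each), a difference of -0.032 (SE 0.108) that was -0.081 without mutant replicate 1 and -0.064 without control replicate 3. Control replicate 1 was the highest array at 3.15, and the gene's other probes, 12045 and 15985 bases away from the brightest, gave differences of 0.12 and 0.11, so the sign at this gene depended on the probe.

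Secreted antagonists bind BMPs outside the cell. Grem1, gremlin, which is made by muscle layers and the mesenchyme around the crypts, read 1.93, 1.97, 1.14 and 1.84 in control replicates 1 to 4 and 0.79, 1.87, 2.06 and 1.82 in mutant replicates 1 to 4. Both groups held 1 low array, control replicate 3 and mutant replicate 1, and the other 6 arrays lay close together. The difference was -0.087 (SE 0.299, 95% interval -0.77 to 0.59), and it was 0.19 without mutant replicate 1, the opposite sign, and -0.28 without control replicate 3. Nog, noggin, read -2.76, -2.78, -2.99 and -3.01 in control replicates 1 to 4 and -2.20, -2.50, -2.76 and -3.02 in mutant replicates 1 to 4. Mutant replicate 1 was the highest and mutant replicate 4 the lowest array. Its difference was 0.27 (SE 0.173) and 0.12 without mutant replicate 1. Chrd, chordin, stood at -2.25 ± 0.15 in controls and -2.31 ± 0.17 in mutants, a difference of -0.054 (SE 0.118) that was 0.011 without mutant replicate 1 and 0.0098 without control replicate 3.

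Among the receptors, Bmpr1a, the type I receptor through which gut epithelium reads BMPs, read 1.23, 1.26, 1.13 and 1.19 in control replicates 1 to 4 and 0.48, 1.07, 1.1 and 1.20 in mutant replicates 1 to 4. Mutant replicate 1 was the low array, and the remaining mutants lay near the lower controls. The difference was -0.24 (SE 0.157), and -0.08 (SE 0.0692) without that array. Bmpr2, the type II receptor of BMPs, read 0.10, 0.093, -0.17 and -0.11 in control replicates 1 to 4 and -0.85, -0.063, -0.19 and -0.035 in mutant replicates 1 to 4. Again mutant replicate 1 stood below the other arrays, and the difference of -0.26 (SE 0.184) was -0.076 without it.

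Bmpr1b, the other type I receptor of BMPs, held the widest spread of any member. It read -4.27, -3.74, -5.12 and -4.38 in control replicates 1 to 4 and -5.20, -1.03, -4.06 and -4.73 in mutant replicates 1 to 4. Mutant replicate 2 was the single bright array, and mutant replicate 1 and control replicate 3 were the dimmest. The difference of 0.62 (SE 0.821, 95% interval -1.25 to 2.49, limma adjusted p = 0.85) was -0.29 without mutant replicate 2, 1.1 without mutant replicate 1 and 0.37 without control replicate 3. The gene has 1 other probe, 2680 bases away, which was not well above background on any array and read -7.65 in mutant replicate 2, within the -7.78 to -6.26 of the other 7 arrays. The first 30 bases of both probes are shown, since the high reading was made by 1 of them (chr3:141503374-141503433) and not by the other (chr3:141500694-141500753), both on the minus strand of mm9.
Bmpr1b, brightest probe: atcatggctttctgaggaggagaaactgtt
Bmpr1b, other probe: atttatggaagcatgtacattgtgaactcc

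Smad1 and Smad5 carry the BMP signal into the nucleus. Smad1 stood at -0.78 ± 0.049 in controls and -0.66 ± 0.16 in mutants (SD, n = 4 each), a difference of 0.12 (SE 0.102) that was 0.042 without mutant replicate 1, the highest array. Smad5 stood at 2.96 ± 0.065 in controls and 2.92 ± 0.057 in mutants, a difference of -0.042 (SE 0.0814), with the smallest standard error of the 39 members, and -0.073 without control replicate 3. Smad6 and Smad7 inhibit the pathway and are induced by it, Smad7 by TGF-beta as well.

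Smad6 read 0.50, 0.37, 0.47 and 0.53 in control replicates 1 to 4 and 0.95, 0.60, 0.51 and 0.47 in mutant replicates 1 to 4. Mutant replicates 1 and 2 were above all controls, and mutant replicates 3 and 4 lay among them. The difference was 0.17 (SE 0.12, 95% interval -0.11 to 0.44), and 0.062 without mutant replicate 1. Smad7 read 0.82, 0.54, 0.74 and 0.68 in control replicates 1 to 4 and 0.84, 0.64, 0.38 and 0.44 in mutant replicates 1 to 4. Here mutant replicates 3 and 4 were below all controls and mutant replicate 1 above them. The difference was -0.12 (SE 0.124, 95% interval -0.40 to 0.16), and -0.21 (SE 0.0975) without mutant replicate 1.

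The Id genes encode inhibitors of basic helix-loop-helix factors and are direct readouts of BMP signalling. Id1 read 2.94, 2.63, 3.03 and 3.17 in control replicates 1 to 4 and 2.95, 2.93, 2.42 and 3.07 in mutant replicates 1 to 4. Mutant replicate 3 and control replicate 2 were the low arrays. Its difference was -0.095 (SE 0.17, 95% interval -0.48 to 0.29). Id2 read 3.32, 2.99, 3.17 and 3.23 in control replicates 1 to 4 and 3.15, 3.00, 3.04 and 3.05 in mutant replicates 1 to 4. The mutants sat close together inside the range of the controls, toward its lower end. Its difference was -0.12 (SE 0.0968, 95% interval -0.34 to 0.10). Id3 read 2.46, 2.41, 2.51 and 2.65 in control replicates 1 to 4 and 2.79, 2.38, 2.52 and 2.37 in mutant replicates 1 to 4. The highest array was mutant replicate 1, and the other mutants lay among or just below the controls. Its difference was 0.0067 (SE 0.118, 95% interval -0.26 to 0.27), and -0.085 without mutant replicate 1. Id4 read 0.034, -0.14, -0.82 and 0.002 in control replicates 1 to 4 and -0.30, -0.59, -0.12 and -0.25 in mutant replicates 1 to 4. Control replicate 3 was the lowest array, and mutant replicates 1, 2 and 4 lay between it and the other controls. The difference of -0.084 (SE 0.2) was -0.28 (SE 0.134, limma adjusted p = 0.849) without that control. Of the 4 Id genes, 3 were lower and 1 higher, and the limma adjusted p ranged from 0.821 to 0.990.

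Short sequences recognised by the pathways' factors and by Rfx factors were looked for in the stretch from 250 bases before to 50 after the start of each gene, in RefSeq on build GRCm38.p6, on both strands. Entries were found for 30 members of 40 among 27025 genes; Bmp1, Bmp2, Bmp3, Bmp7, Nog, Smad7, Id1, Tgfb3, Shh and Gli1 were not matched. GGCGCC, the GC-rich element bound by BMP Smads, was in 9 of 30 members (30%, against 13.4% of all genes): Chrd, Grem1, Bmpr1a, Bmpr2, Smad5, Id2, Id4, Tgfbr1 and Ptch1. The longer TGGCGCC, which contains it, was in 0 of 30 members and 4.66% of all genes. GTCTAGAC, the Smad palindrome, was in 1 member, Smad6 (3.33%, against 0.248%). The hedgehog site GACCACCCA and its core ACCACCCA, which lies within it, were in 0 of 30 members and in 0.289% and 1.72% of all genes. GTTGCCA, a half-site of the X-box bound by Rfx factors, was in Bmp4 and Bmp5 (6.67%, against 5.02%), and GTTGCCAT, 1 letter longer, was in 0 members (1.54% of all genes). A match is a stretch of letters and was not tested as a binding site. The windows of 30 bases below, written 5′ to 3′ along the gene's strand with the match in capitals, show the Rfx half-site (read on the opposite strand) in the ligands and the Smad letters in genes that BMPs induce; they lie at chr14:46390777-46390806 (Bmp4), chr9:75775143-75775172 (Bmp5), chr12:25096306-25096335 (Id2), chr13:48260956-48260985 (Id4) and chr9:64022045-64022074 (Smad6).
Bmp4, minus strand: cccagccaaggTGGCAACtgagggctgggg
Bmp5, plus strand: gtatggctgggTGGCAACgttttcagcctg
Id2, minus strand: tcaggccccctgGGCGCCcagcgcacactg
Id4, plus strand: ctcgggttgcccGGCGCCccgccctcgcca
Smad6, minus strand: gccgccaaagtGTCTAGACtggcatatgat

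Among the genes printed, Bmp4 and Bmp5 differed by 0.064 and -0.32, Id2 and Id4 by -0.12 and -0.084, and Smad6 by 0.17, each with an interval that spans 0.

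**Figure D2:**
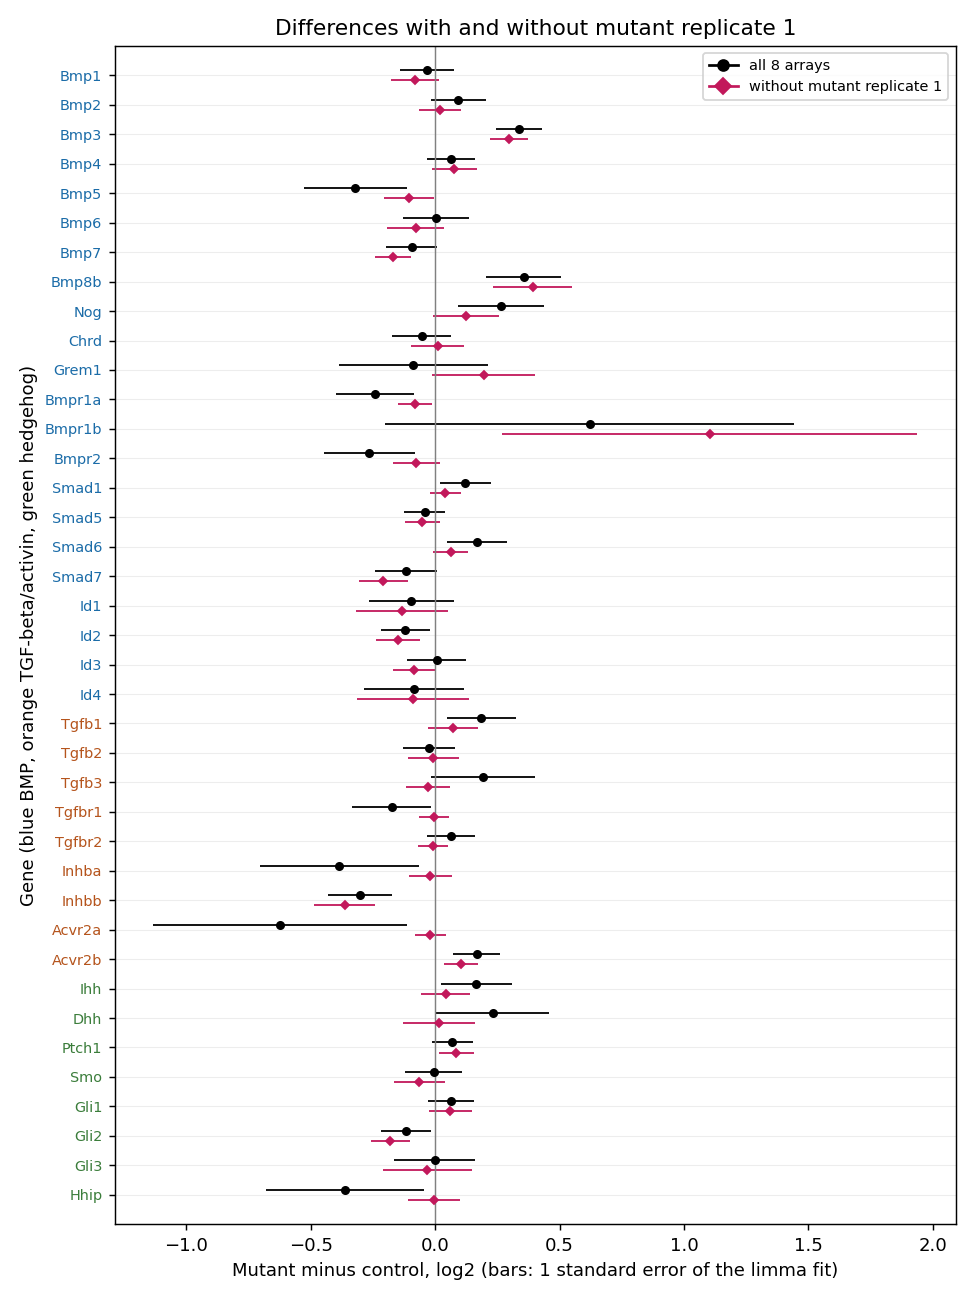
Difference of each tested member in log2 units, mutant minus control, with bars of 1 standard error of the limma fit. Black circles use all 8 arrays and red diamonds leave out mutant replicate 1; the differences of Acvr2a, Inhba and Hhip move to near 0 without it, while Bmp3 stays at 0.30 and Inhbb at -0.36.

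Of the TGF-beta ligands, Tgfb1, which curbs growth of epithelium and immune cells, read -1.84, -1.52, -1.47 and -1.65 in control replicates 1 to 4 and -1.09, -1.53, -1.58 and -1.53 in mutant replicates 1 to 4. Its highest array was mutant replicate 1, and mutant replicates 2 to 4 lay within the controls. The difference was 0.19 (SE 0.14, 95% interval -0.13 to 0.50), and 0.071 without mutant replicate 1. Tgfb3 read 0.83, 0.91, 0.60 and 0.88 in control replicates 1 to 4 and 1.66, 0.78, 0.74 and 0.79 in mutant replicates 1 to 4. Mutant replicate 1 stood apart above the other arrays, and the difference of 0.19 (SE 0.208) was -0.029 without it and 0.13 without control replicate 3. Tgfb2 stood at 0.12 ± 0.14 in controls and 0.095 ± 0.11 in mutants (SD, n = 4 each), a difference of -0.024 (SE 0.104) that was -0.0072 without mutant replicate 1 and -0.091 without control replicate 3.

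Inhba and Inhbb encode the beta subunits of activins, and either can also pair with an alpha subunit to form an inhibin. Inhbb read -2.57, -2.33, -2.21 and -2.20 in control replicates 1 to 4 and -2.45, -2.61, -2.89 and -2.57 in mutant replicates 1 to 4. The mutants were lower, with control replicate 1 and mutant replicate 1 in the range of the other group. The difference was -0.30 (SE 0.129, 95% interval -0.60 to -0.0088, limma adjusted p = 0.821). It was -0.36 without mutant replicate 1 and -0.26 without control replicate 3, and its unadjusted limma p was under 0.05 in 5 of 19 alternatives. Inhba read -0.72, -0.54, -0.56 and -0.54 in control replicates 1 to 4 and -2.07, -0.71, -0.64 and -0.47 in mutant replicates 1 to 4. Mutant replicate 1 was far below the rest, and the difference of -0.38 (SE 0.318) was -0.018 (SE 0.0859) without it.

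Acvr2a, a type II receptor of activins and of some BMPs, had the most negative difference of any member. It read -0.83, -0.80, -0.74 and -0.75 in control replicates 1 to 4 and -3.22, -0.83, -0.80 and -0.77 in mutant replicates 1 to 4. The 7 arrays other than mutant replicate 1 lay within 0.1 of each other, and the groups overlapped among them. The difference of -0.62 (SE 0.51, 95% interval -1.78 to 0.54) was -0.019 (SE 0.0614) without mutant replicate 1. Acvr2b, its paralogue, read 2.32, 2.27, 2.29 and 2.25 in control replicates 1 to 4 and 2.64, 2.44, 2.29 and 2.43 in mutant replicates 1 to 4. Mutant replicates 1, 2 and 4 were above all controls, and mutant replicate 3 lay among them. The difference was 0.17 (SE 0.0954, 95% interval -0.051 to 0.38, limma adjusted p = 0.821), and 0.10 without mutant replicate 1.

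Both TGF-beta receptors had 1 distant array. Tgfbr1, the type I receptor, read 1.05, 1.02, 1.02 and 1.04 in control replicates 1 to 4 and 0.35, 1.03, 1.00 and 1.05 in mutant replicates 1 to 4. The other 7 arrays were nearly equal while mutant replicate 1 was low. The difference of -0.17 (SE 0.16) was -0.0043 (SE 0.0586) without it. Tgfbr2, the type II receptor, read 2.78, 2.78, 2.82 and 2.88 in control replicates 1 to 4 and 3.10, 2.80, 2.78 and 2.83 in mutant replicates 1 to 4. Here mutant replicate 1 was high, and the difference of 0.064 (SE 0.0971) was -0.0082 without it. Over the 7 receptors among the members, mutant replicate 1 was the lowest mutant for 5 (Bmpr1a, Bmpr1b, Bmpr2, Tgfbr1 and Acvr2a) and the highest for Tgfbr2 and Acvr2b. Among other receptors of these pathways, it was the highest mutant for Acvr1, Acvrl1 and Acvr1b and the lowest for Acvr1c. The share of all genes lowest in this mutant was not computed, so the count is not read as particular to receptors.

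Ihh and Shh are made by the epithelium. Ihh, the main hedgehog of the intestine at this age, read 3.52, 3.68, 3.64 and 3.83 in control replicates 1 to 4 and 4.21, 3.73, 3.56 and 3.83 in mutant replicates 1 to 4. Mutant replicate 1 was the highest array, and the other mutants lay within or next to the range of the controls. The difference was 0.17 (SE 0.144, 95% interval -0.16 to 0.50, limma adjusted p = 0.821), and 0.042 without mutant replicate 1, the array in which 8 of 12 epithelial markers were also at their highest. High readings there were not particular to epithelium. The array was also highest for 6 of 7 smooth muscle, 6 of 9 neuron and glia, 5 of 6 endothelial and 5 of 8 mesenchymal markers. It was highest for 0 of 6 red cell and 0 of 8 pancreas markers. The part of any of these markers in the Ihh reading was not tested.

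Shh, the ligand of the earlier gut tube, was the member that could not be tested, as its probe was well above background in 0 of 4 controls and 1 of 4 mutants. It read -6.53, -5.88, -6.53 and -6.56 in control replicates 1 to 4 and -6.44, -6.86, -6.89 and -4.78 in mutant replicates 1 to 4. Mutant replicate 4 was the array above background, and no fold is given. Dhh read -2.31, -2.44, -2.78 and -2.39 in control replicates 1 to 4 and -1.60, -2.44, -2.26 and -2.70 in mutant replicates 1 to 4. Mutant replicate 1 was the highest array and control replicate 3 the lowest, and the difference of 0.23 (SE 0.226) was 0.015 without mutant replicate 1 and 0.13 without control replicate 3. The opening 30 bases of the Ihh probe (chr1:74991906-74991965, minus strand, mm9) and the Shh probe (chr5:28783983-28784042, minus strand) show which stretches gave the bright and the undetected hedgehog readings.
Ihh: gagggggaaatccatgggagaattttggga
Shh: aatttattattgtgtgaactgtactcacag

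Ptch1, Gli1 and Hhip are induced by hedgehog signals and serve as its readout in mesenchyme. Ptch1, the ligand receptor, read -0.59, -0.55, -0.52 and -0.70 in control replicates 1 to 4 and -0.57, -0.54, -0.46 and -0.51 in mutant replicates 1 to 4. The groups overlapped, with control replicate 4 lowest and mutant replicate 3 highest. Its difference was 0.069 (SE 0.0818, 95% interval -0.12 to 0.26). Gli1, an activating transcription factor, read 2.50, 2.65, 2.45 and 2.41 in control replicates 1 to 4 and 2.57, 2.49, 2.69 and 2.52 in mutant replicates 1 to 4. Control replicate 2 and mutant replicate 3 were the high arrays, 1 from each group. Its difference was 0.063 (SE 0.0927, 95% interval -0.15 to 0.27).

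Hhip, which binds hedgehog ligands at the cell surface and limits their reach, read 1.98, 1.63, 1.59 and 1.70 in control replicates 1 to 4 and 0.29, 1.74, 1.70 and 1.72 in mutant replicates 1 to 4. Control replicate 1 was the highest array and mutant replicate 1 lay far below all others. The difference of -0.36 (SE 0.316, 95% interval -1.08 to 0.36, limma adjusted p = 0.821) was -0.0043 (SE 0.104) without mutant replicate 1. In that array the targets Ptch1 and Gli1 lay within the range of the other arrays.

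Smo, the membrane protein that passes the signal on, stood at 2.92 ± 0.13 in controls and 2.92 ± 0.16 in mutants (SD, n = 4 each), a difference of -0.0048 (SE 0.114) that was -0.064 without mutant replicate 1 and -0.062 without control replicate 3. Gli2, the main activator of the response, read -2.39, -2.19, -2.38 and -2.23 in control replicates 1 to 4 and -2.23, -2.53, -2.49 and -2.43 in mutant replicates 1 to 4. Mutant replicates 2, 3 and 4 were below all 4 controls and mutant replicate 1 was among them. Its difference was -0.12 (SE 0.1), and -0.18 (SE 0.0785, limma adjusted p = 0.754) without mutant replicate 1. Gli3, mostly a repressor, read 0.40, 0.57, 0.009 and 0.56 in control replicates 1 to 4 and 0.47, 0.21, 0.18 and 0.67 in mutant replicates 1 to 4. Control replicate 3 was the lowest array, and the difference of -0.0019 (SE 0.164) was -0.13 without it and -0.031 without mutant replicate 1.

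The readings of mutant replicate 1 were compared with the other 3 mutants gene by gene. It lay more than 0.5 below their median for 9 members (Acvr2a, Hhip, Inhba, Bmpr1b, Grem1, Bmp5, Bmpr2, Tgfbr1 and Bmpr1a), more than 0.5 above it for 3 (Tgfb3, Dhh and Nog), and within 0.5 for 27. For 5 of the 9 the gap was more than 2-fold. No other array except mutant replicate 2 at Bmpr1b had a tested member more than 2-fold from its group in this way; the untested Shh was so in mutant replicate 4. Over all genes mutant replicate 1 was more than 2-fold below the others of its group at 2080 genes and above at 251, so low readings in it were common outside these pathways too. The median GC content of the probes was 38.3% for the 9 low members and 40% for the other 30, with a correlation of 0.19 between GC content and deviation over 39 members from this 1 array.

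Where a gene had several probes, the others gave a further reading of the gene, though not always of the same transcript. At Bmp1 and at Smad1, 1 of the other probes is assigned to a different transcript from the brightest. For Acvr2a the other probe lay 1105 bases away (chr2:48757324-48757383, plus strand) and read -4.99 in mutant replicate 1, against -3.40 to -2.96 in the other mutants. For Hhip the other probe lay 3551 bases away (chr8:82490729-82490788, minus strand) and read -3.43 in mutant replicate 1, against -1.70 to -1.46. At both genes both probes were low in that array. For Tgfbr1 the other probe, 2790 bases away, read -4.15 in mutant replicate 1, against -4.07 to -3.44. At Smo the probes disagreed, since mutant replicate 1 was the highest mutant at the brightest probe and the lowest at the other, 306 bases away. The first 30 bases of the probes of Acvr2a and Hhip are given because both genes were low at both stretches.
Acvr2a, brightest probe: tggacaaagatacaagtagcatcttgatta
Acvr2a, other probe: acctcctttaaaagctgataaatgagggat
Hhip, brightest probe: gcagtagccttcatctgtaggttaatagtc
Hhip, other probe: tatagaattatgaccatgagcatgaaagac

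**Figure D3:**
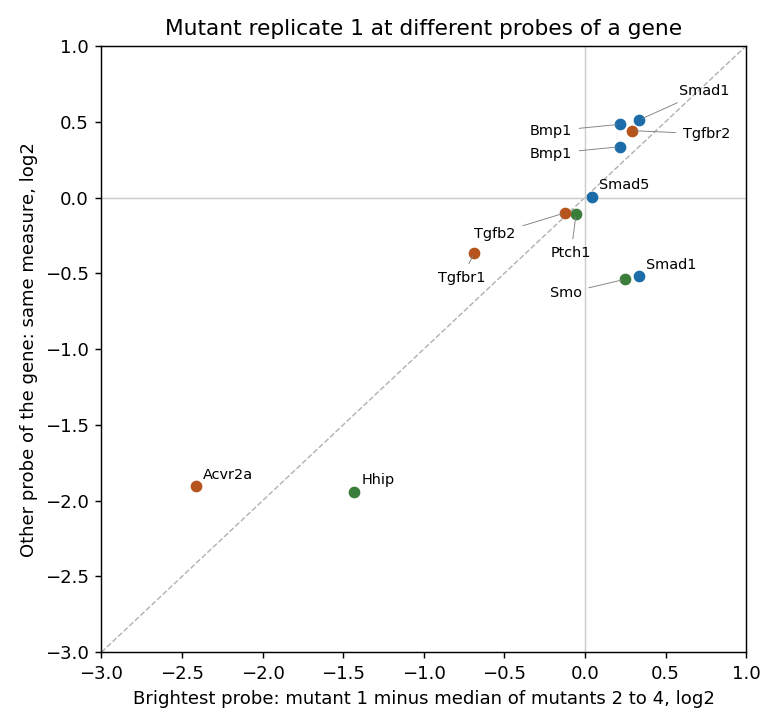
Level of mutant replicate 1 minus the median of the other 3 mutants, in log2 units, at the brightest probe of a member (horizontal axis) and at each other tested probe of the same gene (vertical axis), with a dashed line of equality. Acvr2a and Hhip are low at both probes, at -2.41 and -1.43 for the brightest, while Smo and 1 of the Smad1 probes change side.

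Over the set, 12 members had several probes and 10 had several tested ones, and in 5 of those 10 the probes gave differences of both signs between the groups. Of the 51 tested probes of members 0 were called, against 15 of 35472 tested probes on the array, and 3 (5.88%) had an unadjusted limma p under 0.05, against 5.05% of all tested probes. Among these probes the choice of probe turned no member into a call.

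Control replicate 3 was the lowest control for 15 of 39 members, and low readings of antagonists were among them. It held the lowest control value for 4 of 6 secreted antagonists when the further antagonists Chrdl1, Chrdl2 and Fst were added to Nog, Chrd and Grem1. These 6 are not all the secreted antagonists of the further list, and they were chosen with earlier results known. The share of all genes lowest in this control was not computed, so neither count is read as particular to these genes. Fst, follistatin, which binds activins, read -1.21, -0.85, -1.85 and -0.98 in control replicates 1 to 4 and -1.63, -1.74, -1.59 and -1.23 in mutant replicates 1 to 4. Control replicate 3 was the lowest array, and the mutants lay between it and the other controls. The smooth muscle marker sum was lowest in the same array, and its part in these readings was not tested.

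**Figure D4:**
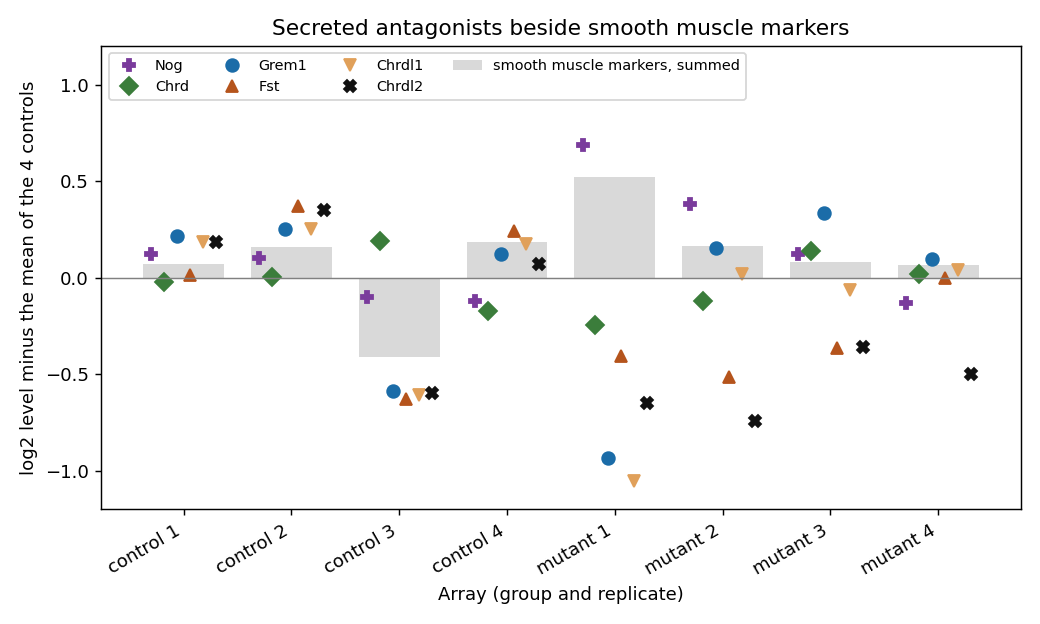
Levels of the secreted antagonists Nog, Chrd, Grem1, Fst, Chrdl1 and Chrdl2 (points), and the log2 of the summed smooth muscle markers (grey bars), on each array minus the mean of the 4 controls. Grem1, Fst, Chrdl1, Chrdl2 and the marker sum are at their lowest control value in control replicate 3, where Chrd is at its highest and Nog just above control replicate 4; in mutant replicate 1 the marker sum is high while Grem1 and Chrdl1 are low.

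Leaving out either array left the count of calls among the members at 0. Without mutant replicate 1, 16 members were higher and 23 lower, 3 had an unadjusted limma p under 0.05 (against 6.64% of all genes), the smallest limma adjusted p was 0.465, the median SE was 0.0944 in place of 0.129, and the interval lay within 1 log2 unit for 38 members, all but Bmpr1b. Without control replicate 3, 18 were higher and 21 lower, the median difference was -0.062 beside 0.028 over all genes, and 1 member, Bmp3, had an unadjusted limma p under 0.05 (against 4.37% of all genes). The spread between arrays was larger in mutants than in controls for 29 of 39 members (74.4%), about the share over all genes (73.6%).

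A further list held 115 other genes of the same pathways, of which 102 were tested. None was called in limma (smallest adjusted p 0.821, against the 0.0592% called over all genes), 5 had an unadjusted p under 0.05 (against 5.33%), and 71 were higher and 31 lower with a median difference of 0.055. Over all genes tested 14482 of 25354 were higher, with a median of 0.031. Of the further hedgehog genes, 30 of 36 tested were higher, with a median of 0.10. Leaving out mutant replicate 1 left 49 higher and 53 lower over the whole list with a median of -0.0032, while the median over all genes also fell, to 0.0017, and left 25 of the 36 hedgehog genes higher with a median of 0.034. Without control replicate 3 these counts were 62 higher and 40 lower over the list and 26 of 36 for the hedgehog genes.

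Of the further BMP genes, the smallest limma p belonged to Chrdl2, a chordin-like antagonist, which read -2.92, -2.75, -3.70 and -3.03 in control replicates 1 to 4 and -3.75, -3.85, -3.46 and -3.60 in mutant replicates 1 to 4. The mutants were low and control replicate 3 lay among them. The difference was -0.56 (SE 0.201, limma adjusted p = 0.821), and -0.76 (adjusted p = 0.293) without control replicate 3. Fst and Smad9, a Smad of the BMP branch, differed by -0.32 and 0.18, and without control replicate 3 by -0.53 and 0.077. Smad9 differed by 0.099 without mutant replicate 1. Of the further TGF-beta and activin genes, Ski and Skil, which repress Smad activity, differed by 0.34 (SE 0.165) and -0.30 (SE 0.164), and without mutant replicate 1, the lowest array for Skil, by 0.22 and -0.14. Inhbe, an activin subunit, and Tgfbr3, a coreceptor that presents TGF-beta, differed by 0.24 (SE 0.124) and 0.17 (SE 0.0957).

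Of the further hedgehog genes, Lrp2, megalin, an endocytic receptor of epithelium that takes up hedgehog among many ligands, read 1.13, 1.76, 1.56 and 1.56 in control replicates 1 to 4 and 2.07, 2.34, 1.90 and 1.85 in mutant replicates 1 to 4. All mutants were above all controls. The difference was 0.54 (SE 0.161, limma adjusted p = 0.821). Foxl1, a forkhead factor of the mesenchyme next to the epithelium, read -0.33, -0.12, -0.094 and -0.22 in control replicates 1 to 4 and 0.24, -0.083, 0.097 and 0 in mutant replicates 1 to 4. The mutants were above the controls, with mutant replicate 2 just over control replicate 3. Its difference was 0.25 (SE 0.103, limma adjusted p = 0.821). Efcab7, which anchors ciliary proteins that act with Smo, read -4.44, -4.09, -4.49 and -4.29 in control replicates 1 to 4 and -5.32, -4.64, -5.10 and -4.56 in mutant replicates 1 to 4. The mutants were below the controls, and the difference was -0.58 (SE 0.186, limma adjusted p = 0.821). Mycn, a growth gene induced by hedgehog, differed by 0.29 (SE 0.123, limma adjusted p = 0.821), with overlapping groups. The 3 further genes whose groups did not overlap, Lrp2, Foxl1 and Efcab7, are 2.94% of the 102 tested, against 4.67% of all genes. All 3 are on the hedgehog list, where they are 8.33% of the 36 tested, above the share of all genes. At an unadjusted limma p under 0.05 there were 4 further hedgehog genes (11.1%, against 5.33% of all genes), with 0 called.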

How the data were processed

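Small intestine RNA of 8 embryos was measured on 8 one-colour Agilent arrays, all on 1 slide and in 1 scan. Per the file headers, the authors read them with Feature Extraction 10.10.1.1 with probe positions on mm9, and deposited spot intensity values on a linear scale, background-corrected and detrended within each array. A table of linear intensity values that the authors also deposited, with no processing stated, tracked the median signal (rank correlation 0.99997 to 0.99998) and served as an alternative.

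Here log2 intensity was taken relative to the 75th percentile of the 59305 non-control spots of each array, outlier spots were dropped and spots of a probe averaged. Each gene took its probe with the highest mean. A probe was tested if it was well above background on at least 4 of 8 arrays, regardless of group. Mutants were set against controls by limma 3.58.1 under R 4.3.3, two-sided and with no covariate, using lmFit and eBayes, and p-values were adjusted by Benjamini-Hochberg over 25354 genes (threshold 0.05). The code was tested on simulated data. The arrays' number limits the precision, and the intervals are limma's at 95%.

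The members, the further pathway list and the marker lists were chosen with earlier results of these data known. Named genes are all members, the 4 genes of smallest p in each part of the further list, and markers that were called or below background; a gene of the further list and a marker are not reported here, though the counts over their lists hold them. Exon, intron and UTR positions of the probes were not analysed here. The 19 alternatives covered background correction, scaling, the deposited table, the filter on dim probes, averaging of probes, slide row, replicate block, variance trend, array weights and leaving out each array.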

Additional observations from a re-analysis of the deposited data

Results flagged for a closer look

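Among 106 groups of 4 arrays (members, and the further genes whose values are given), 15 held 1 array whose gap to the nearest of the others was a large part of the whole range, above Dixon's 95% critical value. For independent groups chosen without regard to their values, about 1 in 20 would do so by chance, or 5.3 of 106. These groups shared the same arrays. Chrdl1 and Disp2 were added to the further genes of smallest p with earlier results known. The count of 15 therefore cannot be judged against 5.3, and no excess over chance is read from it. Mutant replicate 1 accounted for 9 of the 15.

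In mutant replicate 1, Acvr2a read -3.22 (other mutants -0.83 to -0.77), Hhip 0.29 (1.70 to 1.74), Inhba -2.07 (-0.71 to -0.47), Bmp5 -2.73 (-1.92 to -1.80) and Tgfbr1 0.35 (1.00 to 1.05). The chordin-like antagonist Chrdl1 read -3.59 there (-2.60 to -2.50). The high readings of the same array were Tgfb3 at 1.66 (0.74 to 0.79), Tgfb1 at -1.09 (-1.58 to -1.53) and Tgfbr2 at 3.10 (2.78 to 2.83). In mutant replicate 4, Bmp4 read 3.64 (3.38 to 3.43).

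In control replicate 3, the antagonist Grem1 read 1.14 (other controls 1.84 to 1.97) and Chrdl1 -3.14 (-2.36 to -2.28). In control replicate 1, Bmp1 read 3.15 (2.83 to 2.87) and Inhba -0.72 (-0.56 to -0.54). In control replicate 2, Shh read -5.88 (-6.56 to -6.53), on a probe that was not well above background in any control.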

How the results depend on the processing

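No member and no further pathway gene was called at a limma adjusted p of 0.05 in any of the 19 alternatives; the lowest adjusted p of a member was 0.174, with array weights. The median difference of the members ran from -0.062 to 0.020, and that of all genes from 0.0017 to 0.051. The count of called genes on the whole array, 15, was 27 with normexp background correction, 42 with array weights, 7 with the replicate block, and 10 to 22 when 1 array was left out. Of 741 recomputed member differences, 44 changed sign; 25 of 39 members had no sign change, and the members with one had intervals that spanned 0. In the replicate block 0 members were called. Same-numbered controls and mutants deviated with correlations of -0.092, 0.057, -0.071 and 0.091, so the numbers were not taken to pair samples. Of the members, Shh alone missed the background filter, and the other 39 were well above background on all 8 arrays. Bmp8b and Bmpr1b gave some of the lowest readings of those 39, at -4.92 and -5.12 in control replicate 3. The lowest level well above background on that array was -6.09.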

Other observations

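Disp2, a relative of the Disp1 protein that releases hedgehog from the cells that make it, was picked from the further list after its values were seen. It read -1.67, -1.47, -1.50 and -1.63 in control replicates 1 to 4 and -1.42, -2.02, -2.28 and -1.97 in mutant replicates 1 to 4. Mutant replicates 2 to 4 were below all controls and mutant replicate 1 was above them. The difference was -0.36 (SE 0.173, limma adjusted p = 0.821), and -0.52 (SE 0.0998, limma adjusted p = 0.255) without mutant replicate 1.

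The other probe of Bmp4, 193 bases from the brightest, was well above background on 1 array, control replicate 2, where it read -2.25 against -8.17 to -7.33 on the other 7. The brightest probe of Bmp4 read 3.54 in that control, the highest of the controls.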
